A study of Mus musculus with 32 samples.

Results

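The genes described here are 10 genes of polyamine metabolism, selected by their symbols in the deposited count table: Odc1, Oaz1, Oaz2, Azin1, Amd1, Srm, Sms, Sat1, Smox and Paox. All 10 were among the 17757 genes of the table, and none had fewer than 210 counts in any library. Their mRNA was measured by polysome profiling of 4T1 spheroids. 4T1 is a mouse mammary carcinoma cell line, and polysome profiling separates mRNA on a sucrose gradient by how many ribosomes it carries. The polysomal fraction held mRNA on more than 3 ribosomes and the sub-polysomal fraction mRNA on fewer than 3. All spheroids were kept in lung-like medium for 5 days. ASP shSCR spheroids carried a non-targeting shRNA and received 700 µM aspartate, and NoASP shSCR spheroids carried the same shRNA without added aspartate. ASP shGRIN2D and ASP shDHPS spheroids received 700 µM aspartate and carried an shRNA against Grin2d, an NMDA receptor subunit, or against Dhps, the first enzyme of eIF5A hypusination. The shRNAs were delivered by lentivirus, and the cells were polyclonal lines selected with puromycin. Each condition had 4 independent pellets and each pellet gave both fractions, which makes 16 pellets and 32 libraries of 12870563 to 25639437 counts (median 18168765).

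Polyamines are small cations that bind RNA, and growing cells keep their amount within narrow limits. Ornithine decarboxylase makes putrescine, spermidine synthase and spermine synthase extend it with aminopropyl groups from decarboxylated S-adenosylmethionine, and acetylation and oxidation turn the longer polyamines back. Spermidine is also the donor of the group that DHPS transfers to eIF5A, which links the pathway to hypusination. Several steps are known to be regulated during translation, through the reading frame of antizyme mRNA and through short upstream reading frames, and the question here was how each mRNA was distributed between the fractions and whether that differed between conditions.

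The sequences at the known control sites of 3 of these mRNAs are shown because their distribution is described below. They were read from GENCODE M21 transcripts, whose build is GRCm38, while the counts were made on GRCm39. The Amd1 site is a short upstream reading frame in the 5′ UTR at chr10:40302155-40302175 (minus strand), with the start and stop codons in capitals. It has 6 sense codons before its stop and ends 296 bases before the coding sequence. The Oaz1 site at chr10:80828282-80828311 and the Oaz2 site at chr9:65686259-65686288 (both plus strand) are the exonic places where the ribosome has to change frame, with the slip codon and the stop codon behind it in capitals.
Amd1 upstream reading frame: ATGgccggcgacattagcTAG
Oaz1 frameshift site: tcggtggtgcTCCTGAtgtccctcacccac
Oaz2 frameshift site: tctgtggtgcTCCTGAtgcccctcacccac
The capitals of the Oaz1 and Oaz2 sites are identical. Counting ATG on the transcribed strand of the 5′ UTR of 1 coding transcript per gene, Odc1 had 2, Azin1 3, Amd1 1, Sms 4 and Sat1 2 upstream of the coding sequence, and Oaz1, Oaz2, Srm, Smox and Paox had none. Among the 13362 genes of the table matched to such a transcript (75.2%), 48.7% had at least 1.

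A single library stood apart from the others of its fraction and bears on several results. On a scale where 0 is the mean sub-polysomal and 1 the mean polysomal profile of the other 3 conditions, ASP shSCR replicate 1 had a polysomal value of 0.372, and the other 15 polysomal libraries had values of 0.777 to 1.27. Of 6220 genes with a mean of at least 500 counts, 490 were more than 2-fold above the highest of the other 15 polysomal libraries there, against 0 or 1 gene in each other polysomal library. Odc1 was 1 of these 490 genes. Values without this pellet are therefore given below for the mean ratios and for the larger differences of the 10 genes.

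The labels were checked on the targets of the shRNAs. Sub-polysomal Dhps was 33.2 to 43.3 CPM (counts scaled to library size with TMM factors) in the 4 ASP shSCR libraries and 8.96 to 10.8 CPM in the 4 ASP shDHPS libraries, which do not overlap. The edgeR estimate was 4.02-fold (log2 2.01, SE 0.16, adjusted p = 1.11e-08), and the polysomal libraries also differed (log2 1.64, SE 0.23, edgeR adjusted p = 0.0167). Grin2d was low everywhere, with 21 to 126 counts per library. It was 1.84-fold higher in sub-polysomal and 2.20-fold higher in polysomal ASP shSCR libraries than in those of ASP shGRIN2D, without overlap in either fraction, and edgeR did not call either difference (adjusted p = 0.232 and 0.263). All 5 mammary epithelial markers (Krt8, Krt18, Krt14, Epcam and Cdh1) were in the table, with a summed level of 1661 to 4369 CPM in sub-polysomal libraries. Of 5 markers of immune, endothelial and fat cells, Cdh5 and Adipoq were not among the genes of the table, Ptprc had at most 21 and Pecam1 at most 12 counts per library, and Cd68 was the most abundant with 78 to 472 counts.

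The polysomal to sub-polysomal ratio was taken within each pellet as a log2 difference, so that a negative value means relatively more of the mRNA in the sub-polysomal fraction. Both fractions are scaled to their own totals, so 0 is near the middle of all mRNAs (median −0.06 over all 17757 genes) and not an equal number of molecules. Averaged over the 4 conditions, 9 of the 10 polyamine genes passed an adjusted p of 0.05 in edgeR's quasi-likelihood test, 2 higher in polysomes and 7 lower. The background was high, since 62.6% of all genes passed, 31.5% higher and 31.1% lower. This share includes genes with few counts, while each of the 10 genes had at least 210 counts in every library. The median of the 10 genes was −0.49. Without ASP shSCR replicate 1, 9 of 10 passed as well, with means of 0.87 for Azin1, 0.47 for Paox, −0.37 for Smox, −0.38 for Sat1, −0.67 for Srm, −0.74 for Oaz2, −1.76 for Oaz1, −2.04 for Odc1 and −2.19 for Amd1, and −0.09 for Sms, which was not called.

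**Figure D1:**
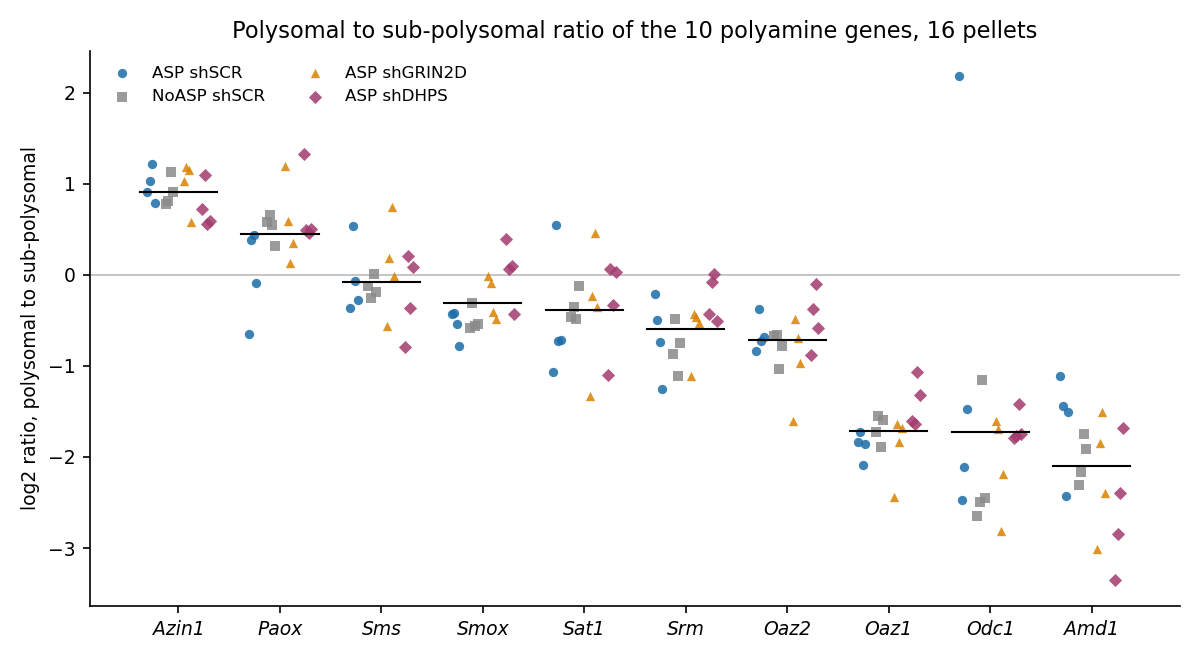
Log2 polysomal to sub-polysomal ratio (vertical axis) of the 10 polyamine genes in each of the 16 pellets, with colour and marker for the condition and a black line for the mean of the 16 pellets. Azin1 lies above 0 and Oaz1, Oaz2 and Amd1 below 0 in all 16 pellets, and 1 Odc1 point, that of ASP shSCR replicate 1 at 2.18, lies far above the other 15.

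Odc1 encodes ornithine decarboxylase, which converts ornithine to putrescine and is the first committed enzyme of the pathway (chr12:17544794-17551505, plus strand, GRCm38). Its log2 ratio was 2.18, −2.47, −2.11 and −1.47 in ASP shSCR replicates 1 to 4 and −2.65, −2.49, −1.16 and −2.45 in NoASP shSCR. In ASP shGRIN2D it was −1.61, −1.69, −2.82 and −2.19, and in ASP shDHPS −1.79, −1.77, −1.42 and −1.75. Odc1 was thus below 0 in 15 pellets and above 0 only in ASP shSCR replicate 1. The edgeR mean of the 4 conditions was −1.79 (SE 0.22, adjusted p = 4.74e-08), a 3.45-fold lower polysomal than sub-polysomal level, which ranks Odc1 at the 8.31 percentile of all genes. Without ASP shSCR replicate 1 the mean was −2.04 (SE 0.12, edgeR adjusted p = 1.38e-15). Within ASP shSCR the estimate was −1.19 (SE 0.48, edgeR adjusted p = 0.0477) with all 4 pellets and −2.09 (SE 0.26, edgeR adjusted p = 1.42e-07) without replicate 1. In a fit with no pellet term the sign turned, to 0.54 with all 4 pellets (edgeR adjusted p = 0.476).

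The single high pellet came from the polysomal library. Polysomal Odc1 was 3918, 175, 148 and 207 CPM in ASP shSCR replicates 1 to 4 and 135, 129, 249 and 146 CPM in NoASP shSCR. It was 204, 246, 147 and 148 CPM in ASP shGRIN2D and 285, 251, 246 and 200 CPM in ASP shDHPS. The 3918 CPM are 69487 counts, 13.8-fold above the highest CPM of the other 15 polysomal libraries, which had 2173 to 5868 counts. The 16 sub-polysomal libraries were within 554 to 1036 CPM, and replicate 1 of ASP shSCR was inside that range at 863 CPM. Among the 6220 genes compared in that library, Odc1 ranked 17 by its excess, and 69 genes were more than 8-fold above the other 15 libraries. Azin2, a relative of Azin1 that is not among the 10 genes, was also higher in that library, with 82.3 CPM against 6.95 to 26.2 CPM in the other 15. Its log2 ratio was 0.62 there and −2.74 to −1.82 in the other 15 pellets.

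**Figure D2:**
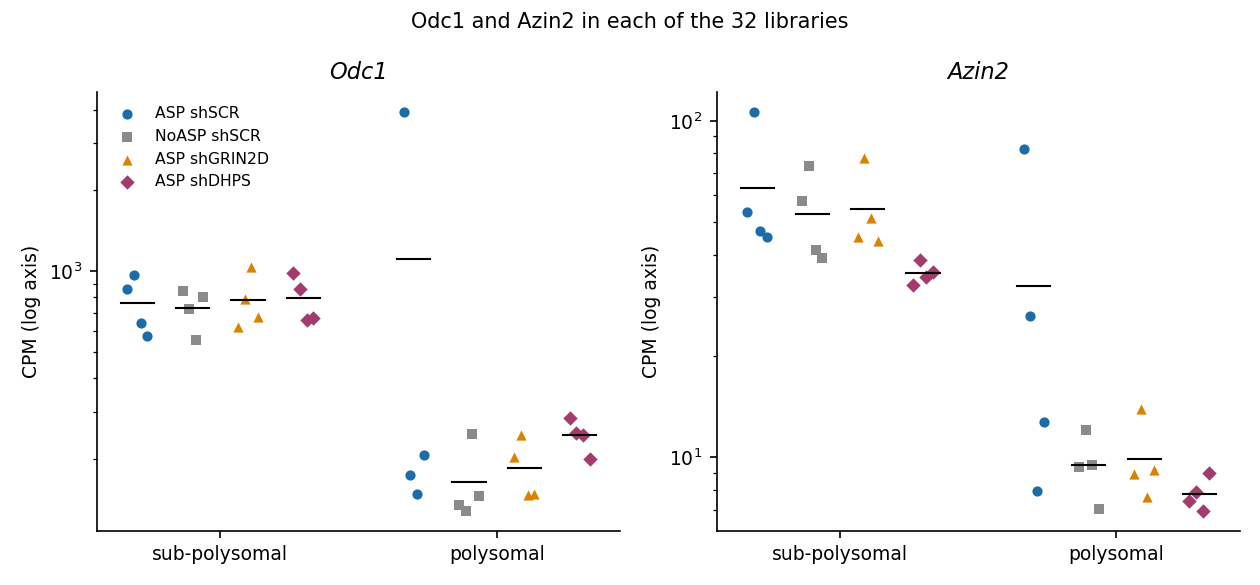
CPM on a log axis of Odc1 (left) and Azin2 (right) in each of the 32 libraries, grouped by fraction and condition, with a black line for the mean of 4 libraries. The polysomal ASP shSCR point of Odc1 at 3918 CPM stands above the other 15 polysomal libraries (129 to 285 CPM), and the same library holds the highest polysomal Azin2 value.

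Oaz1 and Oaz2 encode antizymes, which bind ornithine decarboxylase, direct it to the proteasome and limit polyamine uptake (Oaz1 at chr10:80826656-80829290 and Oaz2 at chr9:65668001-65690300, plus strand, GRCm38). The Oaz1 log2 ratio was −1.83, −1.73, −2.09 and −1.86 in ASP shSCR and −1.72, −1.55, −1.89 and −1.59 in NoASP shSCR. It was −2.44, −1.64, −1.84 and −1.68 in ASP shGRIN2D and −1.61, −1.63, −1.07 and −1.32 in ASP shDHPS. The highest of the 16 pellets was −1.07. The mean was −1.72 (SE 0.09, edgeR adjusted p = 1.05e-14), a 3.29-fold lower polysomal level at the 9.32 percentile of all genes. Oaz2 was nearer to the middle of all genes, from −1.60 to −0.11 in the 16 pellets, with a mean of −0.72 (SE 0.09, edgeR adjusted p = 1.03e-07). Oaz2 had the higher ratio in 16 of 16 pellets, by 1.00 ± 0.22 (SD of the pellet differences). The 2 mRNAs have the same slip and stop codons, printed above, whose part in the ratios was not tested.

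Azin1, the antizyme inhibitor, resembles ornithine decarboxylase without its activity and binds antizyme in its place (chr15:38487427-38519266, minus strand, GRCm38). Its log2 ratio was 0.91, 1.03, 1.22 and 0.79 in ASP shSCR and 0.78, 0.81, 1.12 and 0.91 in NoASP shSCR. It was 1.03, 1.18, 1.15 and 0.58 in ASP shGRIN2D and 0.72, 1.10, 0.56 and 0.59 in ASP shDHPS. Azin1 was therefore above 0 in all 16 pellets, where both antizymes were below 0 and Odc1 was below 0 in 15. The mean was 0.91 (SE 0.08, edgeR adjusted p = 2.46e-10), a 1.87-fold higher polysomal level at the 82.8 percentile of all genes. It ranked 1 or 2 among the 10 genes in every pellet.

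Amd1 encodes S-adenosylmethionine decarboxylase, which makes the aminopropyl donor for spermidine and spermine (chr10:40287458-40302186, minus strand, GRCm38). The Amd1 log2 ratio was −1.11, −1.44, −2.43 and −1.50 in ASP shSCR and −2.30, −2.16, −1.75 and −1.91 in NoASP shSCR. It was −3.01, −1.85, −1.51 and −2.40 in ASP shGRIN2D and −3.36, −2.84, −2.39 and −1.68 in ASP shDHPS. The highest of the 16 pellets was −1.11, and the values were spread more widely (SD 0.62 over the 16 pellets) than those of Oaz1 (SD 0.30). The mean was −2.10 (SE 0.13, edgeR adjusted p = 1.11e-13), 4.30-fold lower in polysomes and at the 4.62 percentile of all genes. This is the mRNA with the upstream reading frame printed above, whose part in the ratio was not tested. The ratio is uncertain as a value of Amd1 alone. Of the 31-base words of the Amd1 transcript, 92.3% also occur in other genes, mainly the near-identical Amd2. The counts assigned to Amd2 gave a mean of −2.14 (SE 0.16, edgeR adjusted p = 2.80e-12).

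Srm (chr4:148591503-148594993, plus strand) encodes spermidine synthase and Sms (chrX:157443855-157492287, minus strand) spermine synthase. The Srm log2 ratio ran from −1.25 to 0.01 over the 16 pellets and was below 0 in 15 of them, with a mean of −0.59 (SE 0.09, edgeR adjusted p = 2.54e-06). For Sms it ran from −0.79 to 0.74, with 6 pellets above and 10 below 0, and the mean of −0.08 did not pass the test (SE 0.10, interval −0.28 to 0.13, edgeR adjusted p = 0.538) and was 0.07 with TMM factors computed within each fraction. Sms alone of the 10 genes had no call in the mean ratio.

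The catabolic genes were on both sides of 0. Sat1 (chrX:155213132-155216449, minus strand) encodes the acetyltransferase that starts polyamine breakdown, Smox (chr2:131491496-131525922, plus strand) the oxidase of spermine, and Paox (chr7:140115799-140137224, plus strand) the oxidase of acetylated polyamines. Sat1 had a mean of −0.39 (SE 0.12, edgeR adjusted p = 0.0083) with pellets from −1.33 to 0.54, and Smox −0.31 (SE 0.09, edgeR adjusted p = 0.00288) with pellets from −0.78 to 0.39. With TMM factors computed within each fraction, which moves the median ratio of all genes up by 0.15, Sat1 was −0.24 and Smox −0.17 and neither was called (edgeR adjusted p = 0.0905 and 0.101). Paox was on the polysomal side with a mean of 0.45 (SE 0.10, edgeR adjusted p = 2.81e-04). Its log2 ratio was −0.65, 0.39, 0.43 and −0.09 in ASP shSCR, 0.58, 0.65, 0.54 and 0.32 in NoASP shSCR, 1.20, 0.59, 0.13 and 0.34 in ASP shGRIN2D, and 1.33, 0.49, 0.46 and 0.50 in ASP shDHPS. Only 2 of 16 Paox pellets were below 0, both of ASP shSCR.

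**Figure D3:**
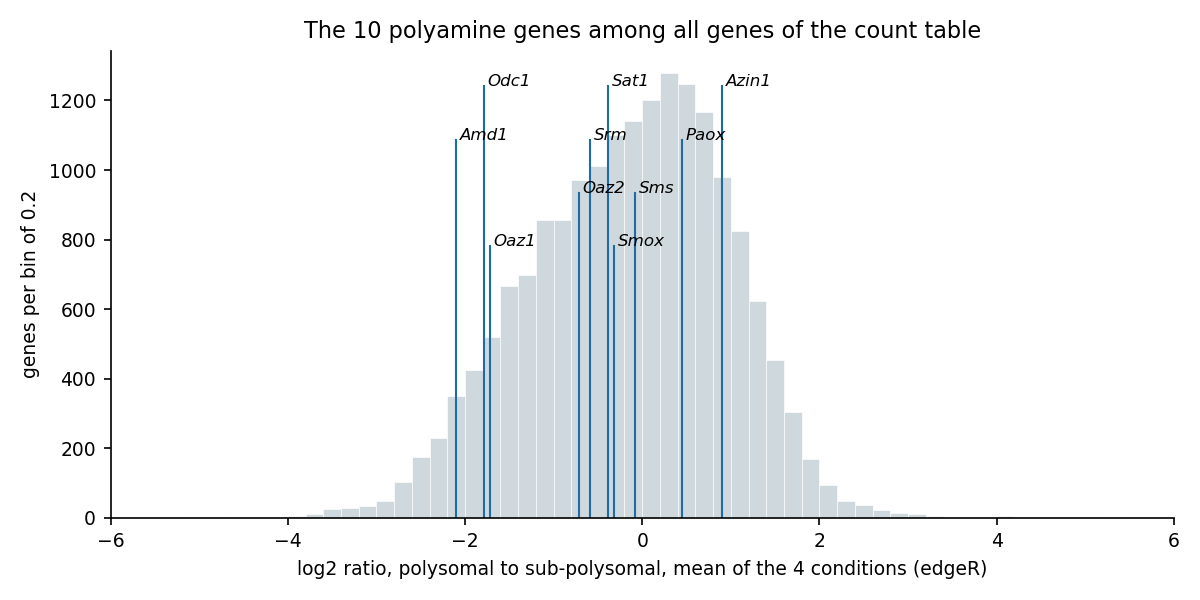
Histogram of the edgeR log2 polysomal to sub-polysomal ratio, mean of the 4 conditions (horizontal axis, bins of 0.2), over all genes of the table, with the 10 polyamine genes as vertical lines whose height only spaces the names (2 of the 17757 genes lie beyond −6 or 6). Amd1, Odc1 and Oaz1 lie near −2 in the lower tail, and Azin1 and Paox right of 0.

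From highest to lowest mean ratio the order was Azin1, Paox, Sms, Smox, Sat1, Srm, Oaz2, Oaz1, Odc1 and Amd1. Neighbours in this order were compared with an exact two-sided sign-flip permutation test over the 16 pellets of all 4 conditions. Benjamini-Hochberg adjustment was over the 9 comparisons. The pairs were set by sorting the same pellet means, so they were not fixed in advance and the p-values are descriptive. Azin1 exceeded Paox in 14 of 16 pellets (mean difference 0.45, exact p = 0.00278, adjusted p = 0.0125) and Paox exceeded Sms in 13 of 16 (0.53, exact p = 0.00424, adjusted p = 0.0127). Oaz2 exceeded Oaz1 with the smallest p this test allows (exact p = 3.05e-05, adjusted p = 2.75e-04). The other 6 neighbours, from Sms down to Oaz2 and from Oaz1 down to Amd1, did not differ beyond their spread (adjusted p = 0.214 to 0.985, exact permutation test). The same 3 neighbours passed without ASP shSCR replicate 1. Genes further apart in the order were not compared.

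Within single conditions, 7 of the 10 genes passed in ASP shSCR (1 higher, 6 lower), where 39.7% of all genes did (20.8% higher, 18.9% lower). In NoASP shSCR 8 passed (2 higher, 6 lower) against 44.3% of all genes (23.7% higher, 20.6% lower). In ASP shGRIN2D 7 passed (2 higher, 5 lower) against 43.5% (23% higher, 20.4% lower), and in ASP shDHPS 6 (2 higher, 4 lower) against 43.1% (21.8% higher, 21.3% lower). Azin1, Odc1, Oaz1, Oaz2 and Amd1 passed in every condition with the same sign. The Odc1 call in ASP shSCR was lost with a replicate block and with TMM factors computed within each fraction. The Oaz2 call in ASP shDHPS was lost with those factors and with no pellet term. Paox passed in NoASP shSCR (0.53), ASP shGRIN2D (0.57) and ASP shDHPS (0.70) and was 0.02 in ASP shSCR (edgeR adjusted p = 0.955), or 0.18 (edgeR adjusted p = 0.548) without ASP shSCR replicate 1. All 7 calls in ASP shSCR held without that replicate. Smox passed in ASP shSCR (−0.54, or −0.64 without that replicate) and NoASP shSCR (−0.50) and was −0.25 in ASP shGRIN2D (edgeR adjusted p = 0.284) and 0.03 in ASP shDHPS (edgeR adjusted p = 0.924). Srm passed in all conditions except ASP shDHPS (−0.25, edgeR adjusted p = 0.292). Sat1 and Sms passed in no single condition. With TMM factors computed within each fraction, 63.8% of all genes called in ASP shSCR were on the polysomal side, and with DESeq2 size factors 47.7%, against 52.4% here.

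Some of these calls were lost when 1 pellet was left out. In ASP shSCR the Odc1 call was lost in 11 of 16 fits that leave out 1 pellet, namely those without ASP shSCR replicate 2, 3 or 4, NoASP shSCR replicate 1, 2 or 4, ASP shGRIN2D replicate 1 or 4, or ASP shDHPS replicate 2, 3 or 4 (edgeR adjusted p = 0.0504 to 0.33). Without ASP shSCR replicate 4, Srm (−0.48, edgeR adjusted p = 0.0737) and Smox (−0.46, edgeR adjusted p = 0.0949) were not called there either, and 4 of 10 passed, where 5669 of all 17757 genes did. Smox also missed without ASP shSCR replicate 3 (−0.54, edgeR adjusted p = 0.0514), and in NoASP shSCR without its replicate 1, 3 or 4 (edgeR adjusted p = 0.073 to 0.0911). The Paox call in NoASP shSCR was lost without its replicate 1, 2 or 3 or ASP shGRIN2D replicate 2 (edgeR adjusted p = 0.0559 to 0.11). In ASP shGRIN2D, Paox was not called without its replicate 1 (0.34, edgeR adjusted p = 0.254) or 2 (0.52, edgeR adjusted p = 0.0831), and Srm was not called without replicate 1 (−0.49, edgeR adjusted p = 0.067). In ASP shDHPS, Paox was not called without replicate 1 (0.49, edgeR adjusted p = 0.0875), and Oaz2 was not called without replicate 1, 2 or 4 (edgeR adjusted p = 0.0605 to 0.198).

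Whether aspartate, Grin2d or Dhps changed these ratios was tested as the difference of the log2 ratio, ASP shSCR minus each other condition. None of the 10 genes passed edgeR's adjusted threshold in any of the 3 comparisons. Among all genes, the comparisons with NoASP shSCR and with ASP shGRIN2D each called 0, the comparison with ASP shDHPS called 37 (0.208%, all higher in ASP shSCR), and in this order 343 (1.93%), 571 (3.22%) and 2416 (13.6%) genes had an unadjusted p under 0.05. DESeq2's Wald test called 0, 0 and 626 genes. The 37 genes of the comparison with ASP shDHPS became 0 to 159 when 1 pellet was left out, and 0 with DESeq2 size factors in edgeR. Of the 10 genes, 3 had an unadjusted p under 0.05 against ASP shDHPS and none in the other comparisons. The 3 comparisons share the ASP shSCR libraries.

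Amd1 had the largest difference against ASP shDHPS, 0.95 (SE 0.35, interval 0.23 to 1.68, edgeR adjusted p = 0.223), meaning a less sub-polysomal Amd1 in ASP shSCR. The pellets overlap, with −2.43 to −1.11 in ASP shSCR and −3.36 to −1.68 in ASP shDHPS, and without ASP shSCR replicate 1 the difference was 0.74 (edgeR adjusted p = 0.347). Against NoASP shSCR it was 0.41 (SE 0.35), or 0.22 without that replicate, and against ASP shGRIN2D 0.57 (SE 0.35), or 0.36 without it. Paox and Smox pointed the other way against ASP shDHPS. Paox differed by −0.68 (SE 0.28, edgeR adjusted p = 0.283), and by −0.49 (edgeR adjusted p = 0.44) without ASP shSCR replicate 1. Smox differed by −0.57 (SE 0.25, edgeR adjusted p = 0.307), or −0.64 (edgeR adjusted p = 0.237) without that replicate, and DESeq2's Wald test, an alternative, put it past the threshold (−0.62, DESeq2 adjusted p = 0.0489). The 4 ASP shSCR pellets were all below the 4 ASP shDHPS pellets for Paox and for Oaz1, and 2.15% of all genes had that pattern. For Oaz1 the difference was −0.47 (SE 0.25, interval −0.99 to 0.05, edgeR adjusted p = 0.419), and without that replicate −0.52 (edgeR adjusted p = 0.367).

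For Odc1 the differences were 1.01 (SE 0.62) against NoASP shSCR, 0.88 (SE 0.62) against ASP shGRIN2D and 0.49 (SE 0.61) against ASP shDHPS. Without ASP shSCR replicate 1 they were 0.16, 0.01 and −0.38, close to 0 against the first 2 conditions and with the other sign against ASP shDHPS. Azin1 differed by 0.08 (interval −0.40 to 0.56), 0.0022 (interval −0.48 to 0.49) and 0.25 (interval −0.23 to 0.73), and without that replicate by 0.087, −0.0090 and 0.23. The SE of a difference was 0.23 to 0.35 for the 9 genes other than Odc1, which sets the size of a change that these comparisons could detect.

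**Figure D4:**
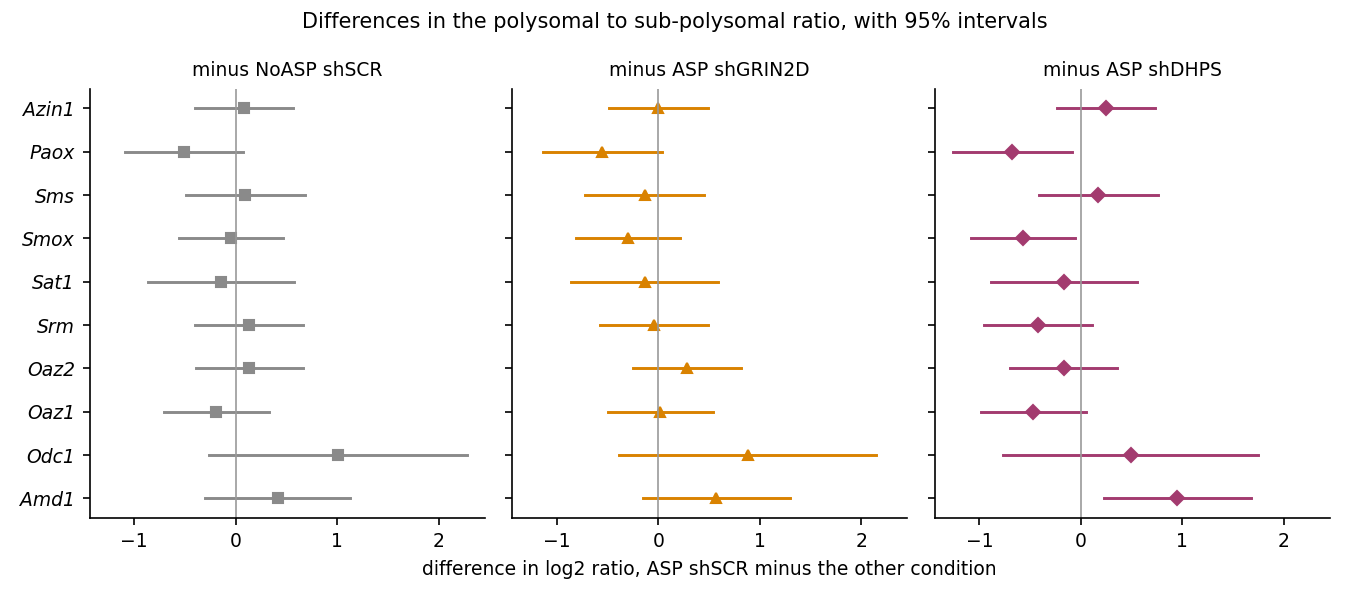
Difference in log2 polysomal to sub-polysomal ratio, ASP shSCR minus NoASP shSCR, ASP shGRIN2D and ASP shDHPS (3 panels), for the 10 genes, as edgeR estimates (markers) with 95% intervals (lines). The intervals of Amd1, Paox and Smox exclude 0 against ASP shDHPS, none of these passes after adjustment over all genes, and the Odc1 intervals are the widest.

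The level of each mRNA within a fraction was compared next. In such bulk samples, fewer cells of a type and less RNA per cell cannot be told apart. Total RNA of the same lysates was not analysed here, so these are levels within a fraction. In the sub-polysomal fraction, 1 of the 10 genes, Paox, was called against ASP shGRIN2D and against ASP shDHPS, where 0.315% and 1.41% of all genes were called, and none of the 10 (and 0 of all genes, with 871, or 4.91%, at an unadjusted p under 0.05 and 1 by DESeq2) against NoASP shSCR. The unadjusted shares were 11% and 16% in the comparisons with the knockdown conditions.

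Sub-polysomal Paox was 29.8, 29.7, 21.8 and 29.0 CPM in ASP shSCR and 29.1, 20.9, 19.3 and 23.3 CPM in NoASP shSCR. It was 14.5, 16.9, 16.2 and 18.1 CPM in ASP shGRIN2D and 13.2, 16.2, 14.7 and 13.2 CPM in ASP shDHPS. All 4 ASP shSCR libraries lay above all 8 libraries of the knockdown conditions, and they overlapped those of NoASP shSCR. A pattern of all 4 ASP shSCR libraries higher was seen in 2.83% of all genes against ASP shGRIN2D and in 4.65% against ASP shDHPS. The difference was 1.93-fold against ASP shDHPS (log2 0.95, SE 0.17, edgeR adjusted p = 0.00222), and the call held when each of the 16 libraries was left out in turn (log2 0.91 to 1.05, edgeR adjusted p = 0.0013 to 0.0168). Against ASP shGRIN2D it was 1.69-fold (log2 0.76, SE 0.16, edgeR adjusted p = 0.0288). That call was lost in a fit of only the compared conditions. It was also lost in 7 of the 16 fits that leave out 1 library, namely those without ASP shSCR replicate 1, 2 or 4 or without any of the 4 ASP shGRIN2D replicates (log2 0.70 to 0.80, edgeR adjusted p = 0.0579 to 0.111). Against NoASP shSCR the difference was 0.26 (SE 0.16, interval −0.07 to 0.60, edgeR adjusted p = 0.848).

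In the polysomal fraction Paox ran from 17.7 to 43.5 CPM over all 16 libraries, and the differences of −0.17, 0.26 and 0.31 were not called (edgeR adjusted p = 0.98, 0.854 and 0.559). Without ASP shSCR replicate 1 they were −0.085, 0.37 and 0.42. Of the 31-base words of the Paox transcript, 32.5% also occur in other genes, most of them in the processed pseudogene Gm19680. Of the 5 mammary markers, the 3 keratins were called in the same sub-polysomal libraries. Krt8 (0.74), Krt18 (1.00) and Krt14 (0.78) were also called higher in ASP shSCR than in ASP shDHPS (edgeR adjusted p = 0.049, 0.032 and 0.00461), and did not overlap against ASP shGRIN2D either, where none was called (edgeR adjusted p = 0.0562, 0.062 and 0.464). Epcam (0.54, edgeR adjusted p = 0.138) and Cdh1 (−0.29, edgeR adjusted p = 0.455) overlapped against ASP shDHPS and were not called, with opposite signs. The 5 markers summed to 2458 to 4369 CPM in ASP shSCR, 2098 to 3140 CPM in NoASP shSCR, 1669 to 2090 CPM in ASP shGRIN2D and 1661 to 2120 CPM in ASP shDHPS. The markers of other cells summed to 6.70 to 12.1 CPM in ASP shSCR and 7.08 to 12.8 CPM in ASP shDHPS sub-polysomal libraries. The part of either in the Paox result was not tested.

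**Figure D5:**
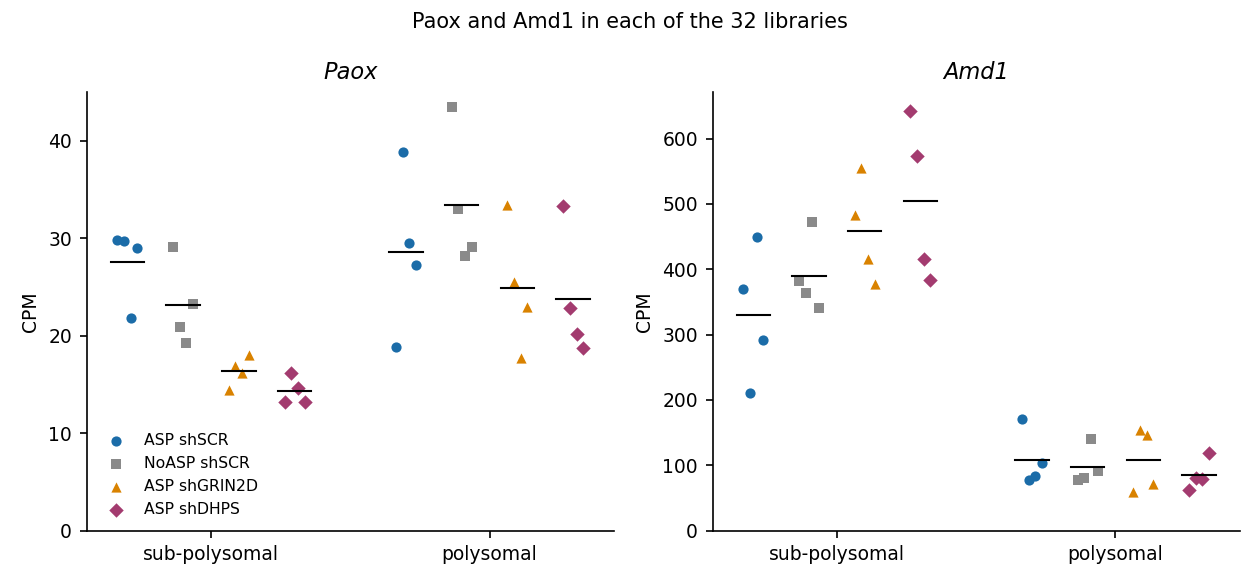
CPM of Paox (left) and Amd1 (right) in each of the 32 libraries, grouped by fraction and condition, with a black line for the mean of 4 libraries and an axis from 0. Sub-polysomal Paox is at 21.8 CPM or more in ASP shSCR and at 18.1 CPM or less in both knockdown conditions, while sub-polysomal Amd1 overlaps between all conditions.

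Sub-polysomal Amd1 was 371, 210, 449 and 292 CPM in ASP shSCR and 383, 364, 472 and 341 CPM in NoASP shSCR. It was 483, 556, 416 and 378 CPM in ASP shGRIN2D and 642, 574, 415 and 384 CPM in ASP shDHPS. The means were 331 ± 103, 390 ± 57.6, 458 ± 78.3 and 504 ± 124 CPM in that order (SD, n = 4), but the libraries overlap. ASP shSCR was lower than ASP shDHPS by a log2 difference of −0.61 (SE 0.20, interval −1.03 to −0.19, edgeR adjusted p = 0.132) and than ASP shGRIN2D by −0.47 (SE 0.20, edgeR adjusted p = 0.383). Of 16 fits that leave out 1 library, 1 brought the difference against ASP shDHPS past the threshold, that without ASP shSCR replicate 3 (−0.79, edgeR adjusted p = 0.0435). Without ASP shSCR replicate 2 the difference was −0.45, and the highest edgeR adjusted p of the 16 fits was 0.415. Azin1 was also lower in ASP shSCR than in ASP shDHPS, by −0.42 (SE 0.15, edgeR adjusted p = 0.168). An alternative fit with a replicate block called both Amd1 and Azin1 against ASP shDHPS, and its values are given in the last section. Smox libraries of ASP shSCR (940 to 1102 CPM) were all above those of ASP shDHPS (749 to 868 CPM), and Sat1 libraries of ASP shSCR (87.6 to 118 CPM) were all below those of ASP shDHPS (118 to 131 CPM), by a margin lost in rounding. Neither was called (Smox 0.33, edgeR adjusted p = 0.318, and Sat1 −0.31, edgeR adjusted p = 0.473), and 4.65% of all genes were all higher and 4.63% all lower without overlap.

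In the polysomal fraction none of the 10 genes was called in any comparison, and of all genes 0, 3 (0.0169%) and 30 (0.169%, of which 0.158% higher and 0.0113% lower) were called against NoASP shSCR, ASP shGRIN2D and ASP shDHPS (1376, 1608 and 2905 at an unadjusted p under 0.05, or 7.75%, 9.06% and 16.4%, and 1, 73 and 554 by DESeq2). Odc1 had the largest estimates of the 10, 2.98, 2.81 and 2.40 (edgeR adjusted p = 0.352, 0.261 and 0.145). They were 0.09, −0.06 and −0.48 without ASP shSCR replicate 1. Sub-polysomal Odc1 differed by 0.07, −0.03 and −0.05 (SE 0.20 each). The markers of other cells, mostly Cd68, summed to 9.19 to 13.3 CPM in the polysomal ASP shSCR and 9.35 to 15.4 CPM in the polysomal NoASP shSCR libraries. They summed to 14.2 to 20.9 CPM in polysomal ASP shGRIN2D and 19.8 to 26.7 CPM in polysomal ASP shDHPS libraries. The part of these markers in the polysomal differences was not tested.

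Levels were compared between genes per kilobase of transcript, as medians over the 16 libraries of a fraction. In the sub-polysomal fraction Oaz1 was highest at 1028 CPM per kb (655 to 1240), followed by Smox at 409 (315 to 485) and Odc1 at 343 (251 to 469), whose ranges overlap. Amd1 (125), Srm (101), Sat1 (98.9) and Oaz2 (83.0) overlapped each other, Sms (29.1) and Azin1 (27.4) did too, and Paox was lowest at 4.01 CPM per kb (2.84 to 6.40). In the polysomal fraction Oaz1 and Smox had medians of 306 CPM per kb each, and Odc1 followed at 91.5. Azin1 was at 49.7 (36.9 to 62.0) and Amd1 at 25.7 CPM per kb (18.6 to 53.5) there. These medians are in the reverse of their sub-polysomal order, but the polysomal ranges overlap. Paox was again lowest at 5.95 CPM per kb. Its 210 to 919 counts per library were also the lowest counts of the 10 genes.

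The ratios of some of the genes varied together, or in opposite directions, from pellet to pellet. Over the 16 pellets Pearson's r of the log2 ratio was 0.875 between Sms and Sat1, 0.766 between Oaz1 and Oaz2 and 0.638 between Oaz1 and Srm, the 3 highest of the pairs, and −0.807 between Amd1 and Paox, −0.691 between Amd1 and Smox and −0.607 between Oaz1 and Azin1, the 3 lowest. These are given as a description, since the pellets share libraries and fractionation for all genes. With the condition means removed, r was 0.939 for Sms and Sat1, 0.794 for Oaz1 and Oaz2 and −0.744 for Amd1 and Paox, while other pairs changed rank, such as Oaz1 and Azin1 (−0.455) and Oaz1 and Amd1 (0.606, against 0.0859 before). For Odc1 the most alike of 6219 other genes with a mean of at least 500 counts were Gm7993 (r = 0.988), Arpc1a (r = 0.987) and Zdhhc8 (r = 0.982) over 16 pellets, and these 3 were still the most alike over the 15 pellets without ASP shSCR replicate 1 (r = 0.932, 0.932 and 0.897). Gm7993 is a processed pseudogene that shares 51.8% of its 31-base words with Odc1, so its counts and those of Odc1 are not fully separate measurements. It shares 0 of these words with Arpc1a. The part of shared words in these likenesses was not tested. For Amd1 the most alike were Arl5a (r = 0.938), Mfsd14a (r = 0.933) and Nras (r = 0.931), and over 15 pellets Pcgf3 (r = 0.950), Uhmk1 (r = 0.944) and Mzt1 (r = 0.934) ranked first. Shared words also limit Oaz1 (58.5%, with Oaz1-ps) and Odc1 (52.0%), while Azin1 (0.124%) and Smox (0%) had next to none.

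The other genes around the pathway were counted on the mean ratio, against the background of 62.6% called given above. Of 8 measured genes that supply or use ornithine, 6 were higher in polysomes and 0 lower, among them Oat (2.14), the ornithine aminotransferase, and Asl (2.01), which makes arginine. Gatm, which uses arginine for creatine synthesis, was also called (2.47), but with only 0 to 10 sub-polysomal and 1 to 17 polysomal counts per library, so that its value depends on the fit (the mean of its 16 pellet ratios was 1.45). The median of this list was 1.61, against −0.49 for the 10 polyamine genes. Of 8 genes of S-adenosylmethionine supply and methionine salvage, 7 were higher and 0 lower, with Apip (1.50), Mri1 (1.14) and Mat2a (1.31), which makes S-adenosylmethionine, and Ahcy (0.97), which clears S-adenosylhomocysteine. The median was 0.89.

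Transport was mixed, with 3 of 9 genes higher and 6 lower, among them Slc3a2 (1.15) and Cav1 (0.80) higher and the polyamine transporter Atp13a3 (−1.21) lower. Slc47a1 was called lower (−1.99) on 0 to 10 sub-polysomal and 0 to 7 polysomal counts per library, and the mean of its 16 pellet ratios was −0.80. In the MYC network, of which Odc1 is a textbook target, 2 of 8 were higher and 4 lower, with Myc (0.97) and the MYC antagonist Mnt (0.30, edgeR adjusted p = 0.0258) higher, and the antagonists Mxd4 (−2.49), Mxd1 (−0.76) and Mxi1 (−0.54) and the MYC relative Mycl (−1.73) lower. Of the 4 hypusination genes, Eif5a2, the second eIF5A isoform, was lower (−1.66, edgeR adjusted p = 7.36e-10), and Eif5a (−0.18), Dhps (−0.19) and Dohh (0.19) were not called. Of 4 measured paralogs and further enzymes, Azin2 (−2.15) and Amd2 (−2.14) were lower and the other 2, Oaz3 (0.45) and Sat2 (1.56), had at most 12 and 15 counts per library and were not called. All 5 mammary markers were higher in polysomes, and 1 of 3 measured markers of other cells was (Cd68, 0.86). In the 3 differences between conditions no gene of these lists passed for the ratio. In the levels those called were Dhps in both fractions and the 3 keratins in the sub-polysomal fraction, each against ASP shDHPS.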

How the data were processed

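mRNA of the polysomal and sub-polysomal fractions of 16 spheroid pellets was sequenced from stranded poly(A) libraries. The values analysed are counts per gene deposited by the authors, not normalized. Per the labels, reads were trimmed with Trim Galore 0.6.6, checked with FastQC 0.11.9, aligned to GRCm39 with STAR 2.6.1 and quantified with Salmon 1.4.0, the authors deposited the Salmon estimates as whole numbers, and kept a gene where 3 or more of the 4 replicates of a group had counts. Salmon shares reads between near-identical transcripts by estimation, so genes with close copies (Amd1, Odc1, Oaz1) are less certain. The authors' other tables, made with DESeq2 1.34.0 and gene set tests, hold log2 differences, p-values and scores of their comparisons and were not used. All 32 count columns were assigned by name, and 0 were left over.

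For CPM and ratios, TMM factors were computed over the 32 libraries in edgeR 4.0.16 (R 4.3.3, limma 3.58.1). For the level fits they were computed over the 16 libraries of the fraction alone. Ratios were fitted with a term per pellet and a polysomal term per condition, since the labels state which fractions came from 1 pellet, and levels over the 16 libraries of a fraction with condition alone. Quasi-likelihood p-values were adjusted with Benjamini-Hochberg over 17757 genes (threshold 0.05), and intervals are 95%. Log2 CPM of single libraries used a prior count of 2. The labels describe the pellets as independent, with 4 per condition. Library totals are given in the report, and each of the 10 genes had at least 210 counts in every library. The fits were tried on simulated data with 200 genes changed 3-fold (log2 1.58). For the ratio difference between ASP shSCR and ASP shDHPS, 179 (89.5%) were recovered with 25 false calls. For the sub-polysomal level difference, 199 (99.5%) were recovered with 8 false calls. The simulated counts varied independently and held no polysomal library standing apart like ASP shSCR replicate 1. These rates therefore do not give the power for smaller changes in the real libraries.

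All 10 polyamine genes are named. Of the other lists, at most 4 genes past the threshold with the largest change are named, plus Dhps and Grin2d, and for Odc1 and Amd1 the 3 most alike genes with a mean of at least 500 counts. A gene that this rule names is not reported here. Azin2 in single libraries, the remaining hypusination and paralog genes, Mnt, Mxi1 and the mammary markers were named after their values were seen. The genes and lists were chosen with earlier results of these data known. Alternatives were DESeq2 size factors, at least 10 counts in every library, DESeq2 1.42.0, a replicate block, no pellet term, TMM within each fraction, only the compared conditions, and leaving out each pellet. Sequences and lengths came from GENCODE M21 (GRCm38) and shared 31-base words from its transcripts, with coordinates in that build only. Figures were drawn with matplotlib 3.10.9 under Python 3.11.15.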

Additional observations from a re-analysis of the deposited data

Results flagged for a closer look

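In 13 of the 120 groups of 4 values of the polyamine genes, the gap between 1 pellet or library and the nearest of the others exceeded Dixon's 95% value for 4 samples. Chance flags about 1 in 20, or 6 of 120. No cause was tested for any of them.

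For Odc1, the polysomal library of ASP shSCR replicate 1 had 3918 CPM against 148 to 207 CPM in the other 3. In NoASP shSCR replicate 3, the Odc1 log2 ratio was −1.16 against −2.65 to −2.45, with 249 CPM in its polysomal library against 129 to 146 CPM. The Odc1 log2 ratio of ASP shDHPS replicate 3 was −1.42, against −1.79 to −1.75.

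For Oaz2, polysomal ASP shSCR replicate 2 had 158 CPM against 90.2 to 95.5 CPM, and sub-polysomal NoASP shSCR replicate 4 had 117 CPM against 156 to 161 CPM. For Srm, sub-polysomal ASP shSCR replicate 2 had 96.5 CPM against 166 to 173 CPM. ASP shGRIN2D replicate 1 had a Srm log2 ratio of −1.12 against −0.53 to −0.42, and its sub-polysomal Srm was 181 CPM against 126 to 134 CPM.

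The Smox log2 ratio of NoASP shSCR replicate 2 was −0.31 against −0.58 to −0.54, and polysomal Smox of ASP shGRIN2D replicate 1 was 958 CPM against 674 to 690 CPM. For Paox, sub-polysomal ASP shSCR replicate 3 had 21.8 CPM against 29.0 to 29.8 CPM, which is the library nearest to the knockdown conditions, and the log2 ratio of ASP shDHPS replicate 1 was 1.33 against 0.46 to 0.50.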

How the results depend on the processing

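The alternatives were counted first for values with an unadjusted p under 0.05 of the 9 polyamine genes other than Odc1. These kept direction and call in 840 comparisons with a setting, lost the call in 34, gained it in 4 and reversed in 0. For Odc1 all values were counted, whatever their unadjusted p, and 280 stayed, 13 lost the call and 12 reversed. The Odc1 counts include values near 0, so they cannot be compared with those of the other 9 genes. Of 86 further values of these 9 genes, with an unadjusted p of 0.05 or more, 29 changed sign under at least 1 setting and 1 passed the threshold. The Odc1 ratio in ASP shSCR was 0.54 with no pellet term, −1.08 (edgeR adjusted p = 0.0616) with the replicate block, −1.04 (edgeR adjusted p = 0.114) with TMM within each fraction and −2.09 to −0.69 with 1 pellet left out. Left-out pellets also moved the Odc1 ratio difference against ASP shDHPS (−0.38 to 1.02), its sub-polysomal differences against NoASP shSCR (−0.079 to 0.18), ASP shGRIN2D (−0.18 to 0.14) and ASP shDHPS (−0.20 to 0.072), and its polysomal differences against ASP shGRIN2D (−0.063 to 3.18) and ASP shDHPS (−0.48 to 2.77). Members called in the ASP shSCR ratio numbered 4 (without ASP shSCR replicate 4) to 7. TMM within each fraction ended the calls of Smox in ASP shSCR (−0.35) and NoASP shSCR (−0.37) and of Oaz2 in ASP shDHPS (−0.35), no pellet term those of Oaz2 in ASP shDHPS (−0.47) and of Sat1 in the mean (−0.33), and DESeq2 size factors and DESeq2 that of Paox in NoASP shSCR (0.43 in both). Genes called for the ratio difference against ASP shDHPS, 37 in the report, numbered 0 with DESeq2 size factors, with no pellet term and with only the compared conditions, 266 with at least 10 counts in every library, 626 with DESeq2, 231 with the replicate block, 184 with TMM within each fraction and 0 (without ASP shSCR replicate 4) to 159 (without ASP shGRIN2D replicate 1) with 1 pellet left out. For sub-polysomal levels, DESeq2 called 1, 224 and 651 genes against NoASP shSCR, ASP shGRIN2D and ASP shDHPS (0, 56 and 251 in the report), the replicate block 195 and 758 in the last 2, and fits with 1 pellet left out 23 (without ASP shGRIN2D replicate 4) to 64 and 80 (without ASP shSCR replicate 2) to 370 (without ASP shSCR replicate 3). For polysomal levels, DESeq2 called 1, 73 and 554 genes (0, 3 and 30 in the report), the replicate block 27 and 405, only the compared conditions 0 and 1, and fits with 1 pellet left out 0 (without ASP shSCR replicate 4) to 98 and 0 (without ASP shSCR replicate 2) to 304 (98 and 304 without ASP shSCR replicate 3), while DESeq2 size factors gave 7 and the count minimum 6 against ASP shGRIN2D. Polyamine genes called in sub-polysomal levels were 0 with only the compared conditions and 0 to 1 with 1 pellet left out against ASP shGRIN2D, and against ASP shDHPS 1 to 2 with 1 pellet left out and 3 with the replicate block, which added Azin1 (−0.43, edgeR adjusted p = 0.0451) and Amd1 (−0.61, edgeR adjusted p = 0.042). Deviations from the condition means correlated more between libraries of the same replicate number (median r = 0.166 for the ratio, 0.358 for the polysomal and 0.249 for the sub-polysomal level) than of different number (−0.05, −0.107 and −0.0763). In the same order, 14, 16 and 18 of 24 same-number pairs were over 0.1, against 18, 21 and 13 of 72 different-number pairs. The labels tie the numbers to no shared batch, so the main fits did not pair the samples by number. Whether a number marks a shared batch was not tested, and the replicate block is given as an alternative. Why the counts moved between settings was not tested. Whether depth limits any of these values was not tested. Paox had the lowest counts of the 10 genes, and Gatm, Slc47a1, Oaz3 and Sat2 had at most 17 counts in any library.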
